A study of Arabidopsis thaliana with 20 samples.

Results

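The nuclear genes that encode the antenna and the subunits of the 2 photosystems of Arabidopsis thaliana were followed through 8 conditions. The members were 43 of the 33601 loci in the count files and were chosen by locus from what they encode: 6 LHCA genes, 15 LHCB genes, 12 PSA genes and 10 PSB genes. All RNA was from Col-0, the standard wild type, as 2 week old seedlings grown in cycles of 12 h light and 12 h dark, with no transgene or mutation in any group. In the AM groups a 1 h treatment began at ZT 0.5 (hours after lights on) and in the PM groups at ZT 12.5, shortly after lights off. The AM control and PM control groups stayed at 23 °C, whereas the AM heat and PM heat groups were moved to 30 °C, each with 4 replicate libraries. For a further 4 libraries, 1 per time and treatment, the seedlings had been moved to constant light (LL) beforehand, so that these have no replicate check. The comparisons ask how far the transcripts of the photosynthetic apparatus differ between morning and evening, and whether a brief rise in temperature changes them at either time.

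Photosystem II splits water and photosystem I reduces ferredoxin, and each is surrounded by antenna proteins that bind chlorophyll and pass on the energy of light. The LHCB proteins form the antenna of photosystem II: LHCB1, LHCB2 and LHCB3 make up the trimers, of which those of LHCB1 and LHCB2 include the mobile antenna, and LHCB4, LHCB5 and LHCB6 the monomers that sit between the trimers and the core. The LHCA proteins are bound to photosystem I. The reaction centres and most of the core are encoded in the chloroplast, so that the nuclear PSA and PSB genes supply the peripheral subunits, among them the ferredoxin docking site (PSAD, PSAE), the docking site of the mobile antenna (PSAH, PSAL, PSAO) and the oxygen-evolving complex on the lumen side (PSBO, PSBP, PSBQ). Antenna genes are a classic example of genes under the circadian clock and under light, with transcripts that are abundant in the morning.

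Transcript levels are given in CPM, the reads of a locus scaled to the size of its library with TMM factors, and levels of different genes are set side by side only in CPM per kb of exon. The diel libraries held 14637914 to 38812441 counted reads and the constant light libraries 8594948 to 19957156. All 43 members were tested, and the lowest count of a member was 82 reads in a diel library and 220 in constant light. The labels of time and treatment matched their marker genes in the diel libraries: the dawn clock gene CCA1 was at 258 to 328 CPM in AM control libraries and at 1.53 to 2.54 CPM in PM control libraries, and the summed level of the heat genes HSFA2 and HSP101 rose from at most 57.5 CPM in both control groups to at least 616 CPM in both heat groups. In constant light the PM control library held 120.9 CPM of these heat genes, above the 10.2 to 19.5 CPM of the diel PM control and below the 487 CPM of the PM heat library in constant light, and its CCA1 level was 40.9 CPM. The leaf markers RBCS1A, CA1 and SBPASE summed to at least 15018 CPM in every library. The labels name whole plant tissue and the methods of the study aerial tissue, and of the 4 root markers EXPA7 and COBL9 stayed below 5 CPM, whereas IRT1 reached 34.1 and PYK10 3381 CPM.

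Promoters are shown for the copies of LHCB4 and PSAD and for LHCB2.3, since the results below turn on how copies of 1 protein differ in time of day and in heat. Each is the 250 bases before the annotated gene start in RefSeq's TAIR10.1, 5′ to 3′ on the gene's own strand. Capitals mark exact matches on either strand of 5 sequences. The first, CACGTG, is the G-box and is bound by bZIP and bHLH factors of light signalling. The second, CCAATC, contains the site of nuclear factor Y, and the third, GATAAG, is the I-box of light-regulated genes. The evening element AAAATATCT was also searched. The last was the CCA1 binding site AAAAATCT, and like the evening element it had no match in these 6.
LHCB4.1 (chr5:208616-208865, plus strand): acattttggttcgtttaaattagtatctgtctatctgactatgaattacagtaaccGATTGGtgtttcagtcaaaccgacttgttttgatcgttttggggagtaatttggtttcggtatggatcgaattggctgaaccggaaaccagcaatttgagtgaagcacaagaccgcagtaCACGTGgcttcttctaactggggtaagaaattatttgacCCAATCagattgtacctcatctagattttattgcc
LHCB4.2 (chr3:2717307-2717556, plus strand): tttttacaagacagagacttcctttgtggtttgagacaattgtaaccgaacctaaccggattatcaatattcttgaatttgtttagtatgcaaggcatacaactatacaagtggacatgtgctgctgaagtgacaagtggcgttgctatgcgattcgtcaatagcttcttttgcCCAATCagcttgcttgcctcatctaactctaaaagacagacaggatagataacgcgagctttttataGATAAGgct
LHCB4.3 (chr2:16745378-16745627, plus strand): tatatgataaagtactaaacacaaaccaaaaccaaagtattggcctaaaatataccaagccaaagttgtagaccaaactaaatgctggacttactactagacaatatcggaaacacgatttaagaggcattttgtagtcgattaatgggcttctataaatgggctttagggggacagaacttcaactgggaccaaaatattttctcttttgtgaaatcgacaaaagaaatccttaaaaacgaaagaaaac
PSAD1 (chr4:1230165-1230414, minus strand): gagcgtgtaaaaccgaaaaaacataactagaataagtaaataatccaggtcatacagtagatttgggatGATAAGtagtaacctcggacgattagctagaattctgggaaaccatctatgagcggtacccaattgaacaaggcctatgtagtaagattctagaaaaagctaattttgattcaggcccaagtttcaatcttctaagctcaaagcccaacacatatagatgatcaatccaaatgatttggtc
PSAD2 (chr1:754263-754512, minus strand): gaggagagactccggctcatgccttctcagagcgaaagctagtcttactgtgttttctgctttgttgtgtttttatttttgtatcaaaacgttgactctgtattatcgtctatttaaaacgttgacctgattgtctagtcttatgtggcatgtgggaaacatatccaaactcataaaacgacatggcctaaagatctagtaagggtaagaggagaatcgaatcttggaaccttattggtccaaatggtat
LHCB2.3 (chr3:10255656-10255905, plus strand): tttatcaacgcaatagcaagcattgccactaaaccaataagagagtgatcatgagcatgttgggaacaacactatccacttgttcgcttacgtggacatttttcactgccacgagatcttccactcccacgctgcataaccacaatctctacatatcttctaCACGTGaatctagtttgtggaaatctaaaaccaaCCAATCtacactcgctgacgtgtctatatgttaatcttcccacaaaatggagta
LHCB4.1 and LHCB2.3 held a G-box and CCAATC, LHCB4.2 held CCAATC and an I-box, and PSAD1 held an I-box, whereas LHCB4.3 and PSAD2 held none of the 5 sequences.

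Over all members the sequence CCAATC stood in the promoters of 3 of 6 LHCA and 7 of 15 LHCB genes but in 0 of 12 PSA and 1 of 10 PSB genes. It was found in 10.2% of 26711 promoters of protein-coding genes, and no searched sequence contains another. The members with it were LHCA1, LHCA3, LHCA4, LHCB1.3, LHCB1.5, LHCB2.1, LHCB2.2, LHCB2.3, LHCB4.1, LHCB4.2 and PSBQ2. The G-box was present in 20.9% of the members and 6.58% of all promoters, and the I-box in 20.9% and 12.2%. The CCA1 binding site was present in 11.6% of the members (LHCA4, LHCB1.1, LHCB1.4, PSAN and PSAO) and 6.74% of all promoters, the morning element CCACAC in 11.6% and 6.17%, and AGATTCT in 11.6% and 6.2%. The evening element was found in LHCA5 alone (2.33% of the members, 2.40% of all promoters), and the core of the heat shock element, GAANNTTC, in LHCB5 alone (2.33% and 9.47%). A match in this window is a description of the letters and not evidence of binding.

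The members lie on all 5 chromosomes, and the copies of LHCB1 and LHCB2 lie close together. LHCB1.2, LHCB1.1 and LHCB1.3 follow each other on chromosome 1 (TAIR10.1, chr1:10472280-10479114) with 1153 and 1915 bases between them, and LHCB1.5 and LHCB1.4 point away from each other on chromosome 2 with 1038 bases between them. Words of 50 bases shared with another gene made up 10.6% to 20.5% of the exons of LHCB1.1 to LHCB1.5, 23.5% of LHCB2.1, 29.5% of LHCB2.2 and 11.4% of LHCA2, so the division of reads among these 8 is uncertain. The other 35 members shared no such word. PSAD2 overlaps its neighbour on the same strand by 2 bases and PSBP1 by 22 bases, and 16 members overlap a gene on the other strand, from which the stranded counting separates them.

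**Figure D1:**
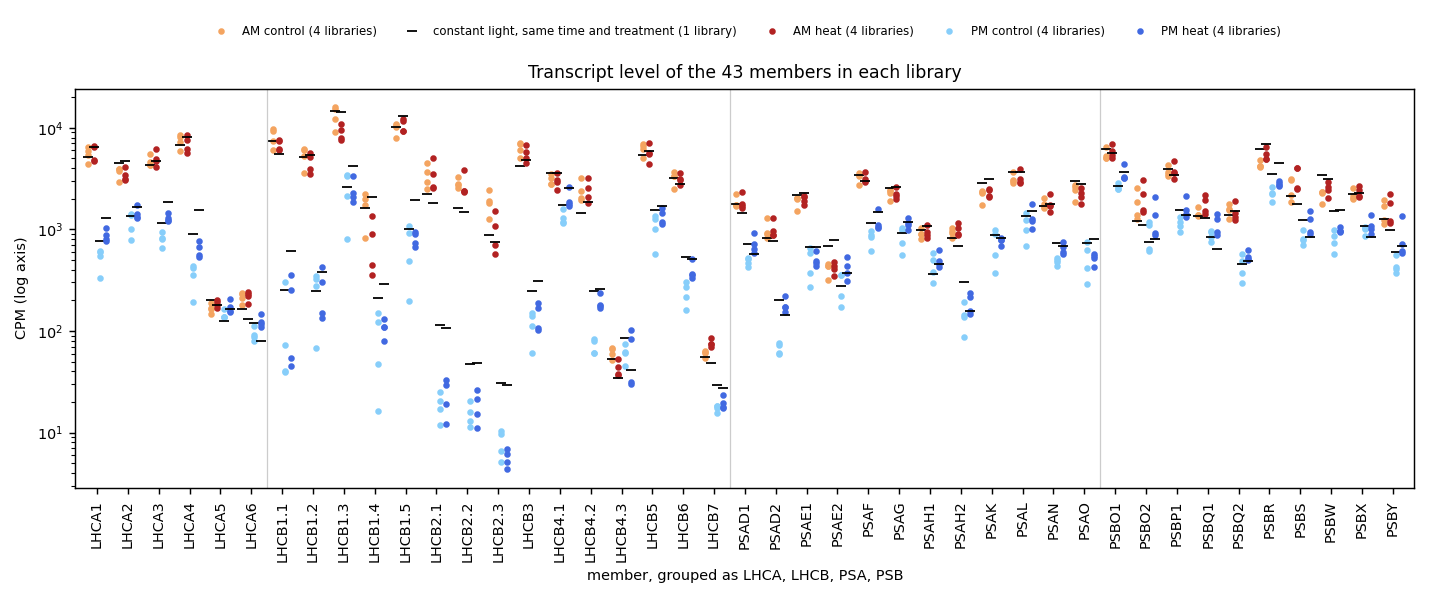
Level of each of the 43 members in CPM (log axis) in each diel library (points, 4 per group) and in the constant light library of the same time and treatment (dashes). The LHCB genes LHCB2.1, LHCB2.2 and LHCB2.3 span the widest range, from at least 1256 CPM in every AM control library to at most 25.1 CPM in the PM control, while LHCA5 and LHCB4.3 lie at like levels in both.

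In unstressed seedlings the photosystem and antenna genes were far more abundant in the morning than in the evening. Together they took 13.3% of all reads in the AM control (10.95% to 14.37% in the single libraries) but 3.26% in the PM control (2.35% to 3.905%). Of the 43 members, 40 were higher in the AM control and 0 were lower, with an adjusted p below 0.05 (edgeR's quasi-likelihood test, Benjamini-Hochberg adjustment over all genes tested) and a log2 difference over 0.5. The same rule called 14.9% of the 21404 tested genes higher and 13.8% lower. The libraries of the 2 groups did not overlap for these 40 members, as against 15.3% of all tested genes that were higher without overlap. In RNA from many cells together fewer cells of a type and less RNA per cell cannot be told apart. The summed leaf markers lay at 24827 to 29117 CPM in the AM control and 17140 to 23421 CPM in the PM control. Their part in the difference was not tested.

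The subgroups differed in size of change. The median log2 difference between AM control and PM control was 4.34 for LHCB, 2.09 for LHCA, 1.91 for PSA and 1.3 for PSB, beside -0.07 over all tested genes. The summed level of the LHCB genes was 67440 ± 10242 CPM in the AM control and 6428 ± 2275 CPM in the PM control (SD, n = 4), a ratio of 10.5. The LHCA sums were 21630 ± 2950 and 3068 ± 629.6 CPM, a ratio of 7.05, and the PSA sums 22040 ± 2470 and 6315 ± 1617 CPM, a ratio of 3.49. The PSB sums were 26678 ± 3225 and 11222 ± 739 CPM, a ratio of 2.38. The range of single members was widest within LHCB, from 0.01 to 7.87 on the log2 scale, and narrowest within PSB, from 0.73 to 1.84.

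The 3 LHCB2 genes, which encode the trimer proteins that are phosphorylated when antenna moves between the photosystems, differed most. LHCB2.3 (AT3G27690) stood at 2451, 1256, 1907 and 1832 CPM in AM control replicates 1 to 4 and at 10.4, 5.19, 6.55 and 9.67 CPM in the PM control. LHCB2.2 (AT2G05070) stood at 3243, 2779, 2555 and 2715 CPM and at 16, 13.0, 11.3 and 20.5 CPM. For both genes every AM library was thus at or above 1256 CPM and every PM library at or below 20.5 CPM. The difference was 235-fold for LHCB2.3 (log2 7.87, SE 0.40, adjusted p = 4.59e-10), 186-fold for LHCB2.2 (log2 7.54, SE 0.34, adjusted p = 1.08e-10) and 183-fold for LHCB2.1 (log2 7.52, SE 0.42, adjusted p = 1.37e-09). Because LHCB2.1 and LHCB2.2 share words and LHCB2.3 does not, the value of LHCB2.3 is the firmest of these.

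The LHCB1 genes, which encode the most abundant antenna protein, ranged from LHCB1.1 with a log2 difference of 6.16 (SE 0.81) through LHCB1.2 (4.35), LHCB1.4 (4.34) and LHCB1.5 (3.88) to LHCB1.3 with 2.45 (SE 0.36). LHCB1.3 (AT1G29930) had the highest mean level of all members over the diel libraries, 5460 CPM per kb. It stood at 12207, 9069, 15139 and 16102 CPM in the AM control and at 796, 2113, 3404 and 3320 CPM in the PM control. The PM control libraries of LHCB1.3 differed widely among themselves, with replicate 1 the lowest, yet all lay below the AM control. LHCB3, the further trimer protein, had a log2 difference of 5.77 (SE 0.33), LHCB6 3.75 and LHCB5 2.57.

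The 3 LHCB4 genes encode the same monomeric antenna protein and behaved in 3 ways. LHCB4.2 (AT3G08940) stood at 3204, 1926, 2030 and 2392 CPM in the AM control and at 60.2, 60.2, 79.6 and 84.0 CPM in the PM control, a 33.6-fold difference (log2 5.07, SE 0.25, adjusted p = 3.74e-10). LHCB4.1 (AT5G01530) stood at 3538, 2790, 2798 and 3173 CPM and at 1144, 1577, 1182 and 1290 CPM, a 2.37-fold difference (log2 1.24, SE 0.18, adjusted p = 6.05e-05). LHCB4.3 (AT2G40100) did not pass the test: its levels were 59.0, 51.2, 68.1 and 66.8 CPM in the AM control and 62.6, 74.2, 61.3 and 44.9 CPM in the PM control (log2 0.01, SE 0.32, adjusted p = 0.984). LHCB4.2 fell in the evening to a small part of its morning level, LHCB4.1 fell less, and the groups overlapped for LHCB4.3. LHCB7, a rarely transcribed relative of the antenna genes with the lowest mean level of all members (35.7 CPM per kb), stood at 54.4, 62.4, 61.3 and 63.8 CPM in the AM control and at 18.2, 17.4, 15.6 and 18.1 CPM in the PM control (log2 1.80, SE 0.12).

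Among the photosystem I antenna genes LHCA4 (AT3G47470) and LHCA1 (AT3G54890), whose products pair with each other at the photosystem, differed most. LHCA4 stood at 8446, 5875, 7239 and 8075 CPM in the AM control and at 194, 417, 352 and 431 CPM in the PM control, 21.2-fold (log2 4.41, SE 0.27, adjusted p = 3.92e-09). LHCA1 stood at 6502, 4398, 5355 and 5858 CPM and at 332, 594, 546 and 611 CPM, 10.6-fold (log2 3.41, SE 0.23, adjusted p = 1.02e-08). LHCA3 (log2 2.54) and LHCA2 (1.65) followed. The minor members LHCA5 and LHCA6 take part in linking photosystem I to the NDH complex. LHCA6, the lowest of the subgroup at 140 CPM per kb, stood at 231, 178, 211 and 237 CPM in the AM control and at 79.3, 111, 86.6 and 91.4 CPM in the PM control (log2 1.22, SE 0.15). LHCA5 did not pass, at 0.21 (SE 0.13, adjusted p = 0.228).

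Of the photosystem I subunits PSAD2 (AT1G03130) and PSAH2 (AT1G52230) differed most, by 14.5-fold and 6.62-fold. PSAD2 stood at 1282, 821, 904 and 924 CPM in the AM control and at 76.4, 73.3, 61.0 and 59.7 CPM in the PM control (log2 3.86, SE 0.20, adjusted p = 6.44e-10). PSAH2 stood at 1021, 822, 921 and 958 CPM and at 87.6, 139, 194 and 143 CPM (log2 2.73, SE 0.23, adjusted p = 1.29e-07). Their copies moved less, with a log2 difference of 1.94 for PSAD1 and 1.05 for PSAH1. PSAO (2.22), PSAE1 (2.01), PSAF (1.99), PSAN (1.88), PSAK (1.64), PSAL (1.54) and PSAG (1.45) lay between. PSAG, which had the highest level per kb of the PSA genes, stood at 2465, 1919, 2393 and 2272 CPM in the AM control and at 562, 733, 1026 and 990.2 CPM in the PM control. PSAE2 missed the threshold with a log2 difference of 0.56 (SE 0.23, adjusted p = 0.0769), and passed it with the replicate number as a block (log2 0.59, adjusted p = 0.0315), for 41 members in all, beside 17.5% of all tested genes called higher in that fit.

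The PSB genes changed least. All 10 were higher in the AM control, led by PSBQ2 (AT4G05180), an extrinsic subunit of the oxygen-evolving complex, and PSBY (AT1G67740), a small membrane protein of photosystem II. PSBQ2 stood at 1790, 1265, 1598 and 1540 CPM in the AM control and at 299, 369, 573 and 491 CPM in the PM control (log2 1.84, SE 0.21, adjusted p = 3.80e-06). PSBY stood at 1962, 1699, 1117 and 1224 CPM and at 427, 558, 409 and 369 CPM (log2 1.77, SE 0.30, adjusted p = 2.38e-04). PSBR had the highest level per kb of the subgroup and differed by 1.93-fold, with 4869, 4220, 4150 and 4169 CPM against 1854, 2251, 2302 and 2603 CPM. PSBP1 (1.71), PSBS (1.64), the sensor of photoprotective energy dissipation, PSBW (1.47), PSBX (1.14), PSBO1 (1.07), PSBO2 (0.99) and PSBQ1 (0.73) made up the rest. The call of PSBO2 (adjusted p = 0.0335) was lost without AM control replicate 1 or 2 or PM control replicate 3 or 4, where its log2 difference ranged from 0.76 to 1.16 over all libraries left out in turn.

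**Figure D2:**
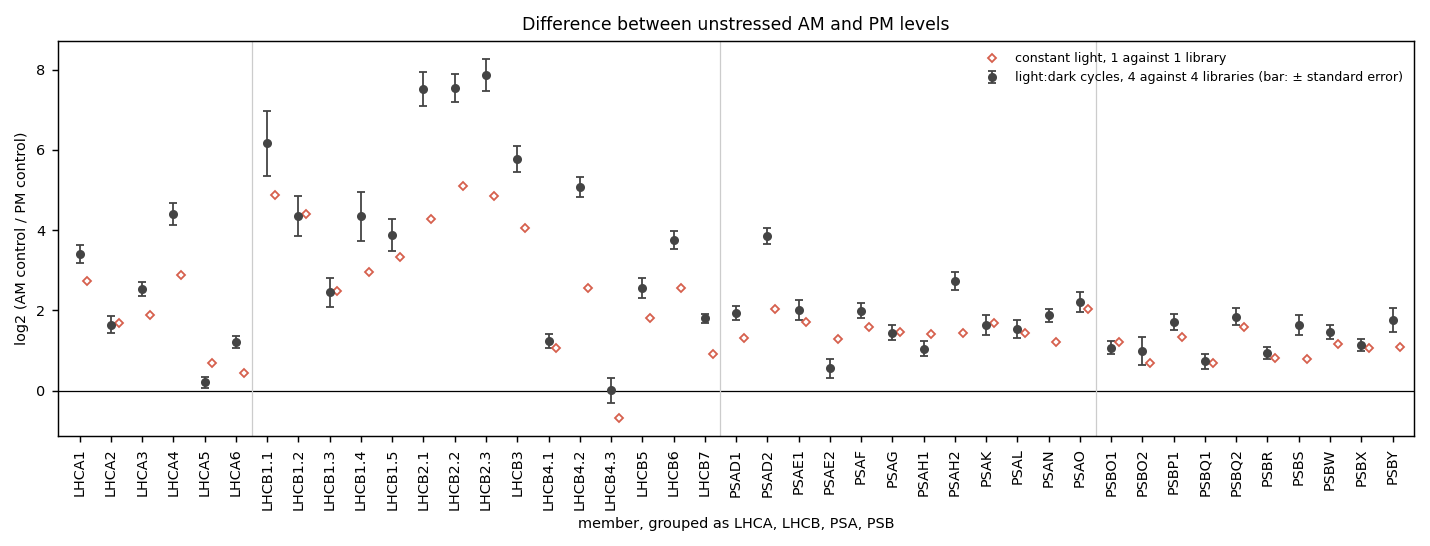
Log2 ratio of AM control to PM control for each member in light:dark cycles (filled points, 4 against 4 libraries, bars are ± 1 standard error) and in constant light (open diamonds, 1 against 1 library). LHCB genes reach 7.87 in light:dark cycles, PSB genes 1.84, and LHCB4.3 lies at 0.01 and in constant light at -0.67.

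In constant light most of the difference between morning and evening remained. Of the 43 members 41 were higher by more than 0.5 on the log2 scale in the AM control library than in the PM control library, and 1, LHCB4.3, was lower. Of all tested genes 17.7% were higher and 20.7% lower by this rule, which has no replicate check. The medians were 2.95 for LHCB, 1.80 for LHCA, 1.46 for PSA and 1.07 for PSB, beside 0.02 over all tested genes. For 34 members the difference was smaller than in light:dark cycles. LHCB2.3 stood at 889 CPM in the AM and 31.0 CPM in the PM (log2 4.84), LHCB4.2 at 1445 and 245 CPM (2.56), LHCA4 at 6736 and 906 CPM (2.89) and PSAD2 at 823 and 202 CPM (2.03). LHCB1.3, at 14528 and 2588 CPM (2.49), and LHCB1.2, at 5154 and 246 CPM (4.39), differed about as much as in light:dark cycles.

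The smaller difference went with higher evening levels. The PM control library in constant light lay above all 4 diel PM control libraries for 27 of 43 members and below them for 1, with 11 of 15 LHCB genes above. Of all 21404 tested genes 5000 lay above and 5216 below. The median log2 difference between constant light and the diel mean in the PM control was 1.2 for LHCB, 0.54 for PSA, 0.46 for LHCA and 0.29 for PSB. In the AM control 11 members lay above and 9 below the diel libraries, beside 7232 and 6288 of all 21404 tested genes, and the median over the members was -0.05. Of the 15 LHCB genes 1 lay above and 5 below (median -0.11), and the share below was close to that of all tested genes. LHCB2.3 stood at 889 CPM in the morning in constant light, against a diel mean of 1862 CPM, LHCB2.2 at 1613 against 2823 CPM and LHCB4.2 at 1445 against 2388 CPM. LHCB2.1 stood at 115 CPM in the PM control in constant light, against 11.8 to 25.1 CPM in the diel PM control. In this PM control library the heat genes and CCA1 were also above their diel range, and the part of either in these levels was not tested.

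After a heat treatment of 1 h in the morning 1 member passed the test. It called 0 of 43 members higher and 1 lower, LHCB2.3, while 5.20% of all tested genes were called higher and 8.36% lower. The median log2 fold changes were 0.03 for LHCA, -0.15 for LHCB, 0.04 for PSA and 0.15 for PSB, beside 0.03 over all tested genes. Together the members took 11.2% of reads in the AM heat group, and their summed level was 132272 ± 20732 CPM against 137787 ± 16600 CPM in the AM control (SD, n = 4). None of the 12 PSA genes differed by more than 0.14 on the log2 scale in either direction, with adjusted p of 0.752 or above, so that a difference was not detectable with SE of 0.15 to 0.24.

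LHCB2.3 stood at 1533, 572, 1070 and 708 CPM in AM heat replicates 1 to 4, against 2451, 1256, 1907 and 1832 CPM in the AM control. The lowest control library lay below the highest heat library, so the groups overlapped, but each heat library was below the control library of the same number. It fell by 0.94 on the log2 scale (SE 0.30, adjusted p = 0.0446), and with the replicate block, which called 12.6% of all tested genes lower, the adjusted p was 0.00273. The call was lost when AM control replicate 1, 3 or 4 or AM heat replicate 2, 3 or 4 was left out, with 0 members then called and log2 fold changes of LHCB2.3 between -1.25 and -0.75. LHCB1.4 had a larger log2 fold change of -1.15 but also a larger SE of 0.54 and did not pass (adjusted p = 0.170), and LHCB1.3 stood at -0.56 (adjusted p = 0.311). The ranges of the groups separated for LHCB7 (log2 0.33, adjusted p = 0.0631) and PSBR (0.32, adjusted p = 0.162), which were higher in all 4 heat libraries and missed the fold limit and the adjusted p. Of all tested genes 10.4% were higher without overlap.

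After dark the same treatment went with higher levels of several antenna and photosystem I genes. The test called 10 of 43 members higher and 0 lower in the PM heat group, beside 7.59% of all tested genes called higher and 10.6% lower. These were LHCA1, LHCA3 and LHCA4 of the photosystem I antenna, LHCB4.1, LHCB4.2 and LHCB6 of the photosystem II monomers, PSAD1, PSAD2 and PSAF of photosystem I, and PSBY. None of the trimer genes LHCB1, LHCB2 and LHCB3 passed in the fit of all libraries. The medians were 0.56 for LHCA, 0.43 for PSA, 0.40 for PSB and 0.30 for LHCB, beside -0.03 over all tested genes, and 39 members had a positive value. The members summed to less than in the morning, with a sum of 35518 ± 6175 CPM over the members against 27033 ± 4963 CPM in the PM control (SD, n = 4).

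LHCB4.2 and PSAD2 rose most. LHCB4.2 stood at 175, 238, 169 and 181 CPM in the PM heat group, against 60.2, 60.2, 79.6 and 84.0 CPM in the PM control, and rose 2.69-fold (log2 1.43, SE 0.22, adjusted p = 5.67e-04). PSAD2 stood at 171, 221, 153 and 173 CPM, against 76.4, 73.3, 61.0 and 59.7 CPM, and rose 2.65-fold (log2 1.41, SE 0.18, adjusted p = 1.52e-04). For both genes all 4 heat libraries were above all 4 control libraries, and both calls held in all 8 fits that left out 1 PM library and within replicates 1 and 2 and replicates 3 and 4 taken alone. PSAD1, the more abundant copy, stood at 713, 923, 590.2 and 644 CPM against 469, 519, 509 and 428 CPM and rose by 0.58 (SE 0.17, adjusted p = 0.0265).

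LHCA4 stood at 678, 776, 534 and 554 CPM in the PM heat group, against 194, 417, 352 and 431 CPM in the control, and rose by 0.86 (SE 0.24, adjusted p = 0.0179). LHCA1 stood at 762, 1037, 803 and 874 CPM against 332, 594, 546 and 611 CPM and rose by 0.74 (SE 0.21, adjusted p = 0.0208). LHCA3 rose by 0.68 (SE 0.17, adjusted p = 0.0107). All 4 heat libraries were above all 4 control libraries for these 3 genes. LHCB6 stood at 360, 514, 336 and 359 CPM against 160, 217, 304 and 269 CPM and rose by 0.72 (SE 0.21, adjusted p = 0.0220). PSBY stood at 722, 1368, 582 and 613 CPM against 427, 558, 409 and 369 CPM and rose by 0.90 (SE 0.29, adjusted p = 0.0389). LHCB4.1 rose by 0.61 (adjusted p = 0.0248) and PSAF by 0.53 (adjusted p = 0.0446). The ranges separated for 13 members, including PSAN, PSBO1 and PSBR, which did not pass the thresholds, as they did for 11.2% of all tested genes that were higher.

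**Figure D3:**
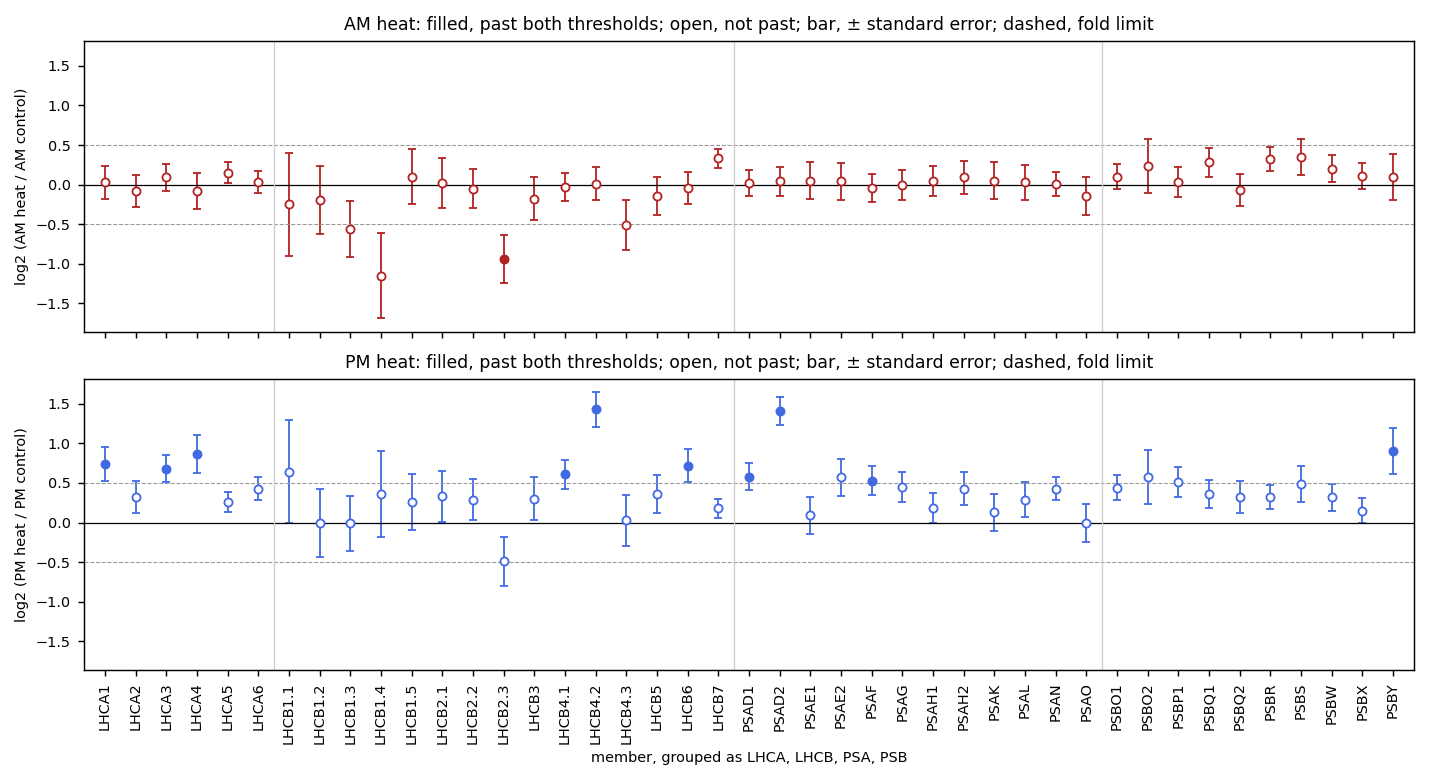
Log2 fold change of each member after 1 h at 30 °C in the AM (upper panel) and PM (lower panel), with bars of ± 1 standard error, filled where both thresholds were passed and dashed lines at the fold limit of 0.5. In the AM the filled point is LHCB2.3, and in the PM the 10 filled points are led by LHCB4.2 at 1.43 and PSAD2 at 1.41.

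With the replicate number as a block, PSAE2 (log2 0.61, adjusted p = 0.0340) and PSBO2 (0.57, adjusted p = 0.0124) passed as well, for 12 of 43 members, beside 11.5% of all tested genes called higher in that fit. Without PM control replicate 2, in which LHCB1.1 stood at 301 CPM against 39.2 to 73.3 CPM in the other control libraries, LHCB1.1 and LHCA6 were called higher as well, and the log2 fold change of LHCB1.1 was 1.80 in place of 0.64. Without PM control replicate 1, PM control replicate 4 or PM heat replicate 2 the count was 5, 6 and 5. The calls of LHCB4.1 and PSAD1 were lost without PM control replicate 1, 3 or 4 or PM heat replicate 2, and that of LHCB6 without PM control replicate 1 or PM heat replicate 2. PSAF was lost without PM control replicate 1, 2 or 4 or PM heat replicate 2, 3 or 4, and PSBY without PM control replicate 1, 3 or 4 or PM heat replicate 1 or 2. Scaled by total counts alone, with which the median of all genes stood at -0.27 in place of -0.03, 2 members passed, LHCB4.2 (1.17) and PSAD2 (1.16). The members' share of reads was 3.26% in the PM control and 3.58% in the PM heat group.

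Both heat responses differed between the replicates. In the AM 36 of 43 members were positive in replicates 1 and 2 alone and 14 in replicates 3 and 4 alone, with LHCB medians of 0.04 and -0.33. LHCB1.3, LHCB1.4 and LHCB4.3 were called lower beside LHCB2.3 in replicates 3 and 4 alone, and 0 members were called in replicates 1 and 2 alone. Of all 20953 genes tested in replicates 3 and 4 alone 1927 were called higher and 2297 lower. In replicates 1 and 2 alone these numbers were 756 and 588 of 21158. In the PM the split of the members' medians was wider. Taken alone, PM replicates 1 and 2 gave positive values for 41 of 43 members and medians of 0.95 for LHCB, 0.82 for LHCA, 0.78 for PSA and 0.62 for PSB. In replicates 3 and 4 alone 23 members were positive, with medians of -0.26 for LHCB, 0.39 for LHCA, -0.02 for PSA and 0.15 for PSB. The difference between these pairs was not tested. LHCB1.3, a trimer gene, differed in sign between the pairs: it stood at 796 and 2113 CPM in PM control replicates 1 and 2 and at 2290 and 3348 CPM after heat, whereas replicates 3 and 4 went from 3404 and 3320 CPM to 1856 and 2092 CPM. The other LHCB1 genes, LHCB2.1, LHCB2.2, LHCB3, LHCB4.3 and LHCB5 likewise had a positive value in replicates 1 and 2 and a negative value in replicates 3 and 4. The change of sign was not limited to LHCB. Of the PSA genes 12 of 12 were positive in replicates 1 and 2 but 6 of 12 in replicates 3 and 4. For PSB these counts were 10 and 8 of 10, and for LHCA 6 and 5 of 6. In a fit of replicates 3 and 4 alone LHCA1, LHCB4.2, PSAD2 and PSBY were called higher and LHCB1.2, LHCB1.3, LHCB2.3, LHCB4.3 and PSAO lower. The same fit called 3879 of all 20953 tested genes higher and 4294 lower, a larger share in each direction than among the members. In replicates 1 and 2 alone LHCB4.2 and PSAD2 were called higher, beside 471 of all 21158 tested genes higher and 239 lower. The labels do not say what the replicate numbers stand for.

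**Figure D4:**
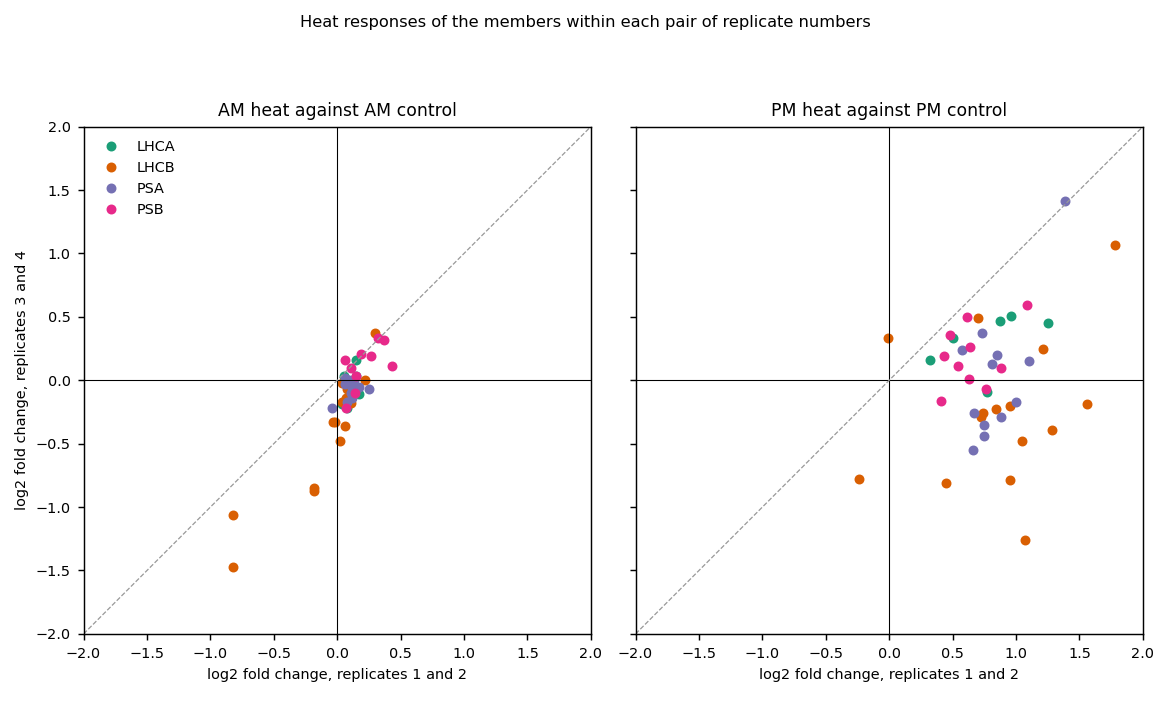
Log2 fold change of each member after heat in replicates 1 and 2 (horizontal) against replicates 3 and 4 (vertical), for AM heat (left) and PM heat (right), with colours for the subgroups and a dashed line of equality. In the PM most members lie right of 0 but spread around 0 on the vertical axis, while PSAD2 (1.39 and 1.41) lies on the line.

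In both diel heat groups the summed level of the 4 root markers was lower. They summed to 2012 to 2675 CPM in the AM control and 1079 to 1408 CPM in the AM heat group, and to 1923 to 3414 CPM in the PM control and 957 to 1373 CPM in the PM heat group. PYK10 made up nearly all of these sums, with a mean of 2342 CPM in the AM control beside 25.8 CPM for IRT1. IRT1, COBL9 and PYK10 passed the test in both contrasts, PYK10 with log2 fold changes of -0.93 and -1.13, and EXPA7 in neither. The leaf markers, 17140 to 23421 CPM in the PM control and 22380 to 25289 CPM in the PM heat group, did not pass in either. The part of these markers in the heat responses of the members was not tested.

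To ask whether the heat response itself differed between evening and morning, the PM response was set against the AM response in 1 interaction test. It was positive for 42 of 43 members in the fit of all libraries and in replicates 1 and 2 alone, but for 26 in replicates 3 and 4 alone. Of all tested genes 10034 of 21404, 10178 of 21158 and 9870 of 20953 were positive in these 3 fits. Without PM control replicate 1, 9 of the 42 members not called changed sign, and 0 to 4 did without any other single library. With all libraries the interaction had medians of 0.50 for LHCA, 0.50 for LHCB, 0.38 for PSA and 0.24 for PSB, beside -0.03 over all tested genes. A single member passed, PSAD2, whose PM response was 2.58-fold greater than its AM response (log2 1.37, SE 0.26, adjusted p = 0.0238), and 0 members passed in the other direction. Of all tested genes 0.234% passed as higher and 0.164% as lower. In the AM PSAD2 stood at 1308, 883, 957 and 889 CPM after heat, which overlapped the 821 to 1282 CPM of the control. LHCB4.2 had a log2 difference of 1.41 (SE 0.30) that fell short (adjusted p = 0.0543) and passed with the replicate block (1.42, adjusted p = 0.0250), for 2 members in all, beside 1.58% of all tested genes called higher in that fit. The call of PSAD2 was lost, leaving 0, without PM control replicate 3 or 4, AM heat replicate 2, 3 or 4 or PM heat replicate 4, with log2 values between 1.21 and 1.52. The block fit called PSAD2 with an adjusted p of 0.00550, and DESeq2 called both genes beside 1.44% of all tested genes called higher. For the remaining members a difference between the responses was not shown.

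In constant light 0 members were higher and 1, LHCB4.3, was lower by more than 0.5 after AM heat, beside 16.4% and 16.1% of all tested genes. After PM heat 8 were higher, namely LHCA1, LHCA3, LHCA4, LHCB1.1, LHCB1.2, LHCB1.3, LHCB1.5 and LHCB4.1, and 4 were lower, LHCA6, LHCB4.3, PSAH2 and PSBS, beside 23.0% and 31.6% of all tested genes. LHCA1 went from 769.8 to 1284 CPM (log2 0.74), LHCA3 from 1148 to 1858 CPM (0.69) and LHCA4 from 906 to 1554 CPM (0.78), close to their diel values of 0.74, 0.68 and 0.86. LHCB4.2 did not follow: its PM control level of 245 CPM was above the 169 to 238 CPM reached after heat in light:dark cycles, and its PM heat level was 256 CPM. PSAD2 stood at 202 CPM in the control and 144.5 CPM after heat. Of the other members called after PM heat in light:dark cycles, LHCB4.1 stood at 0.56. PSAD1 (-0.31), LHCB6 (-0.09), PSBY (0.22) and PSAF (0.36) did not pass 0.5. The summed root markers stood at 949 CPM in the AM control and 2065 CPM after AM heat in constant light, a rise where the diel libraries fell, and at 1929 and 656 CPM in the PM. Nearly all of this was PYK10, at 945 and 2052 CPM in the AM and 1919 and 653 CPM in the PM. The leaf markers stood at 27863 and 24660 CPM in the AM and at 17043 and 15018 CPM in the PM. The part of these markers in the constant light values was not tested.

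Members of a pair of copies that encode the same subunit shifted their proportions with time of day. LHCB4.1 made up 56.1% ± 2.9 of the summed CPM per kb of LHCB4.1 and LHCB4.2 in AM control libraries, as against 94.6% ± 1.2 in PM control libraries (SD, n = 4). PSAD1 made up 61.5% ± 1.9 of its pair in the AM control, as against 85.7% ± 1.5 in the PM control. PSAH1 went from 34.55% ± 0.78 to 63.0% ± 2.7 and PSBQ1 from 54.5% to 72.4%. For PSAE the shift went the other way, with PSAE1 at 77.9% ± 0.47 in the AM control but 56.0% ± 1.5 in the PM control. The libraries of both groups did not overlap in any of these 5 pairs. For PSBO, PSBO1 stood at 73.7% ± 4.4 and 72.8% ± 5.8, with overlapping libraries. These shares were not tested, and none of the 12 genes shares a word of 50 bases with another gene.

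After PM heat the PSAD1 share was 77.0% ± 1.0 (75.8% to 77.9% in single libraries), below the 83.8% to 87.6% of the PM control without overlap, and the LHCB4.1 share was 91.0% ± 0.63, below the 93.6% to 96.3% of the PM control. The PSAE1 share was 48.3% ± 3.3, below the 54.6% to 58.2% of the PM control. The shares of PSAH1 (59.0% ± 4.1) and PSBQ1 (72.2% ± 3.5) overlapped those of the PM control. After AM heat the shares of LHCB4.1 (55.4% ± 3.4), PSAD1 (61.0% ± 1.4), PSAE1 (78.1% ± 0.88) and PSAH1 (33.8% ± 1.1) overlapped those of the AM control. The PSBQ1 share (60.3% ± 4.1) overlapped as well but was higher in each heat library than in the control library of the same number, at 59.3%, 65.5%, 55.6% and 60.95% against 54.4%, 58.25%, 51.9% and 53.5%. In constant light the shift between AM control and PM control was smaller for LHCB4.1 (70.8% and 87.3%), PSAD1 (64.4% and 74.8%) and PSAE1 (70.9% and 64.6%), and PSAH1 stood at 39.2% and 39.6%, 1 library each.

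**Figure D5:**
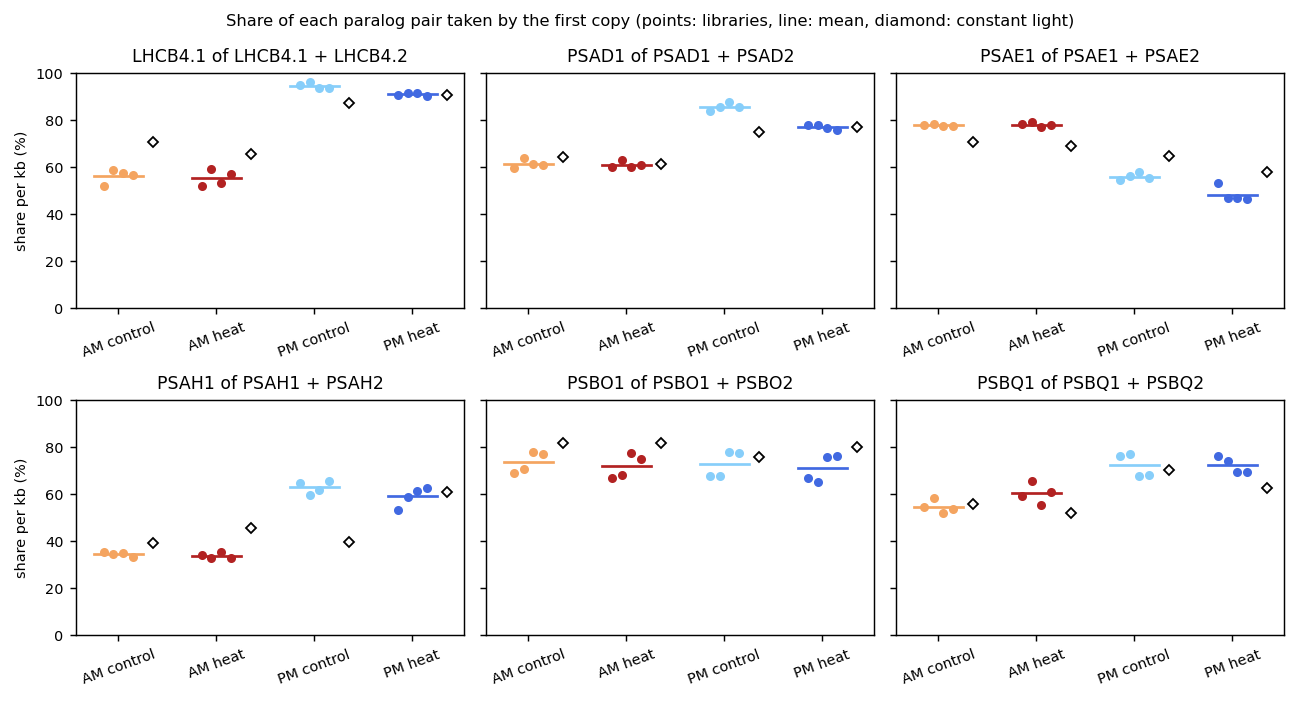
Share of the first-named copy in the summed CPM per kb of each pair of copies, in percent, with 1 point per diel library, a line at the group mean and a diamond for constant light. LHCB4.1 goes from a mean of 56.1% in the AM control to 94.6% in the PM control and PSAE1 from 77.9% to 56.0%, while PSBO1 stands at 73.7% and 72.8%.

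The copies of PSAE and PSBO differed as follows. PSAE1 stood at 2028, 1500, 2046 and 1978 CPM in the AM control and at 271, 373, 654 and 582 CPM in the PM control, whereas PSAE2 stood at 431, 314, 454 and 434 CPM and at 171, 222, 358 and 359 CPM. The PSAE2 levels of morning and evening overlapped, yet each evening library was below the morning library of the same number, and the blocked fit called PSAE2 as given above. PSBO1 stood at 6430, 5085, 5043 and 5278 CPM in the AM control and at 2624, 2834, 2478 and 2494 CPM in the PM control, and PSBO2 at 2534, 1841, 1259 and 1380 CPM and at 1099, 1182, 610 and 638 CPM. PSBO2 was higher in replicates 1 and 2 than in replicates 3 and 4 in all 4 diel groups, while the time of day difference lay in every replicate. PSAH1, the lowest PSA gene per kb, stood at 1030, 808, 910 and 891 CPM in the AM control and at 299, 382, 579 and 504 CPM in the PM control, and PSBQ1 at 1676, 1384, 1352 and 1393 CPM and at 756, 973, 939 and 832 CPM.

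Other nuclear genes of the light reactions moved with time of day less uniformly. Of 7 genes of the electron transport chain 4 were higher in the AM control: ferredoxin FD1 (log2 1.98) and FD2 (0.62) and plastocyanin PETE1 (1.12) and PETE2 (1.05). The ferredoxin reductase FNR2 was lower (log2 -1.2), and the Rieske gene PETC (0.04) and FNR1 (0.08) did not pass. Of 3 subunits of the chloroplast ATP synthase ATPD was higher (1.21), and ATPC1 (0.66, adjusted p = 0.0594) passed with the replicate block (adjusted p = 1.88e-04). The transcription factors GLK1 (2.47) and GLK2 (2.82), which activate antenna genes, and the antenna kinase STN7 (1.79) were higher in the AM control, the antenna phosphatase TAP38 was lower by 0.76 on the log2 scale, and the kinase STN8 did not pass (-0.02). GLK1 stood at 202, 247, 177 and 195 CPM in the AM control and at 26.9, 29.7, 47.5 and 44.1 CPM in the PM control.

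After AM heat FD1 rose by 1.33 and was the called gene of these 15, and GLK2 (0.48, adjusted p = 0.162) passed with the replicate block (0.51, adjusted p = 0.0224). After PM heat FD1 (1.82), ATPG (0.52), STN8 (0.60) and TAP38 (0.53) rose, and PETE2 (0.63, adjusted p = 0.0620) passed with the replicate block (0.59, adjusted p = 0.00679). GLK1 fell by 0.87 (SE 0.20, adjusted p = 0.00807), to 21.6, 25.5, 16.5 and 17.2 CPM, below all 4 control libraries, while the 10 called antenna and photosystem genes rose. Its decline was smaller in replicates 1 and 2 (-0.27) than in replicates 3 and 4 (-1.47). In constant light GLK1 went from 71.2 to 11 CPM after PM heat. There FD1 moved against its diel direction, from 425 to 189 CPM (log2 -1.17), and ATPD went from 357 to 152 CPM (log2 -1.24).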

How the data were processed

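RNA-Seq was done by the authors on 16 diel and 4 constant light libraries of Arabidopsis seedlings. The deposited files hold raw read counts for each locus. The authors made them on TAIR10 with TopHat2 2.1.0 and HTSeq 0.6.0 from poly(A) RNA, counting by strand and without normalization. Groups and replicate numbers came from the labels, which do not say what separates the replicates, so p-values measure the spread between these samples. In all 24 pairs of replicates the counts differed by more than sampling noise (dispersion index 13.95 to 183.8).

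The counts of the 21404 loci with at least 10 reads in at least 1 diel library were tested with edgeR 4.0.16 in R 4.3.3 (TMM, glmQLFit, glmQLFTest, 4 groups in 1 fit, Benjamini-Hochberg adjustment over all loci tested). Adjusted p come from this test, or, where the block or DESeq2 is named, from that fit. A call needed an adjusted p below 0.05 and a log2 fold change over 0.5, without the fold limit for the interaction. SE is the log2 fold change divided by the root of the F statistic. Constant light values are log2 CPM differences with a prior count of 2. The edgeR fit of 4 groups held no replicate term, and among the fits the replicate block alone took replicate numbers to pair the libraries. Where libraries of the same number are set side by side, this describes the values and does not show that they were paired. Deviations from group means over 14816 genes of at least 5 CPM correlated over 0.1 in 24 of 24 same-numbered pairs (mean r 0.503, lowest 0.106). Over the 43 members alone 16 of 24 pairs did (mean 0.290, lowest -0.208). Numbers 1 and 2, and 3 and 4, deviated together nearly as much (0.483, against -0.493 between these pairs). The correlations therefore do not tell pairing by number from a split of 1 and 2 against 3 and 4. Centring on group means by itself lowers the value between the pairs.

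The members and lists were chosen with earlier results of these data known. Values in every library are given, in replicate order, for the 2 called members with the largest change in each subgroup and contrast, the highest and lowest member of each subgroup by CPM per kb, and the copies of paired genes. Positions, exons and promoters come from RefSeq's TAIR10.1. Alternatives were DESeq2 1.42.0, other scalings, filters and thresholds, a replicate block, replicate pairs and left-out libraries.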

Additional observations from a re-analysis of the deposited data

Results flagged for a closer look

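In 16 of 188 groups of 4 libraries 1 library stood apart from the other 3 by Dixon's criterion, where chance gives about 1 in 20 groups, or 9.40. The groups come from the same 16 diel libraries and are not independent, so the excess over 9.40 was not tested.

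In the AM control, replicate 1 was the high library for PSAD1 (2241 CPM, the others 1704 to 1736), PSBO1 (6430, the others 5043 to 5278), PSBQ1 (1676, the others 1352 to 1393) and PSBR (4869, the others 4150 to 4220). Replicate 2 was the low library for PSAE1 (1500 CPM, the others 1978 to 2046), PSAE2 (314.0, the others 431.0 to 454.0), PSAK (1753, the others 2305 to 2397) and PSBW (1760, the others 2300 to 2353). In the PM heat group replicate 2 was the high library for LHCB4.1 (2634 CPM, the others 1692 to 1844), LHCB4.2 (238.2, the others 169.0 to 180.8), LHCB6 (514.1, the others 335.8 to 359.7), PSAF (1574, the others 1042 to 1102) and PSBO1 (4446, the others 3188 to 3260). In the PM control replicate 2 was high for LHCA5 (165.7 CPM, the others 137.2 to 137.8) and LHCB1.1 (301.1, the others 39.22 to 73.30), and in the AM heat group replicate 1 was high for LHCB2.2 (3804, the others 2311 to 2398).

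The heat response of PSAD2 differed between PM and AM by 1.37 on the log2 scale in the interaction test.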

How the results depend on the processing

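No member called with all libraries changed direction under an alternative. LHCB1.2, LHCB1.3, LHCB4.3 and PSAO, which were not called with all libraries, were called lower after PM heat in replicates 3 and 4 alone. These genes had positive values in replicates 1 and 2. The fit of replicates 3 and 4 alone called 4294 of all 20953 tested genes lower after PM heat. Between 37 and 41 members were called higher in the AM control under all alternatives. For AM heat, 1 member was called, against 0 in replicates 1 and 2 alone, with glmTreat against 0.5 or with a fold limit of 1, 4 in replicates 3 and 4 alone, and 0 to 1 without single libraries. For PM heat, 10 were called, against 4 with upper-quartile scaling, 2 with total counts, 3 with the PM groups fitted alone, 2 in replicates 1 and 2 alone, with glmTreat or with a limit of 1, and 5 to 11 without single libraries. For the interaction, 1 was called, against 2 with DESeq2, total counts or the replicate pair as batch, 0 with glmTreat, and 0 to 2 without single libraries. In replicates 1 and 2 alone 0 were called, and in replicates 3 and 4 alone 3, of which 2 were higher and 1, LHCB1.2, lower. Of all 21158 genes tested in replicates 1 and 2 alone the interaction called 14 higher and 5 lower. In replicates 3 and 4 alone these numbers were 1093 and 1155 of 20953. In constant light a limit of 1 left 0 members after AM heat and 2 after PM heat.

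With total counts the unstressed medians were 1.77 (LHCA), 1.60 (PSA) and 0.98 (PSB), and the PM heat medians 0.17 (PSA) and 0.15 (PSB). Replicates 1 and 2, and 3 and 4, gave PM heat medians of 0.95 and -0.26 (LHCB), 0.78 and -0.02 (PSA) and 0.62 and 0.15 (PSB), unstressed LHCB medians of 4.75 and 3.80, and PSA interaction medians of 0.69 and 0.02. The LHCB interaction median in replicates 3 and 4 was 0.08. The cause of these shifts was not tested.

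With the replicate block 41 members were called in the unstressed comparison, 1 after AM heat, 12 after PM heat and 2 in the interaction; beside the calls named above for PSAE2, PSBO2 and LHCB4.2 it changed no other call of a member.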
